A study of Mus musculus with 6 samples.

Results

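The Bcl2 family decides, in most mammalian cells, whether the outer membrane of the mitochondrion stays intact or is opened to release the factors that start apoptosis. Its transcripts were followed here in ureteric epithelium, which branches in the embryonic kidney and becomes the collecting ducts, for 10 genes: Bcl2, Bcl2l1, Bcl2l2, Mcl1, Bax, Bak1, Bcl2l11, Bbc3, Pmaip1 and Bid. They were taken by symbol, and all 10 were found among the 21456 gene symbols with values in the deposited table. Mouse kidneys (strain CFW) at E16.5, late in gestation, carried a pair of fluorescent reporters, Wnt11RFP and Hoxb7GFP. Sorting on both reporters gave tip cells, and sorting on Hoxb7GFP in the absence of Wnt11RFP gave stalk cells, with 3 libraries for either population. The question of the design was how these cell populations of one epithelium differ. The labels do not say whether replicates were different animals, so p-values measure only sample to sample spread, possibly technical. The groups rest on the cells in which the Hoxb7 and Wnt11 reporters are active.

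Family members fall into 3 classes that bind one another. Pro-survival proteins (Bcl2, Bcl2l1 or Bcl-xL, Bcl2l2 or Bcl-w, and Mcl1) hold the effectors Bax and Bak1 in check, and the effectors form the pores once released. The BH3-only proteins (Bcl2l11 or Bim, Bbc3 or Puma, Pmaip1 or Noxa, and Bid) carry stress and damage signals, by occupying the pro-survival proteins or by activating the effectors. Mice without Bcl2 are known for small, cystic kidneys, and so the family has long been studied in this organ.

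Values are RPKM (reads normalised to transcript length and library size), summed over the rows of a symbol, and are per length, so levels of different genes may be set side by side. Sequencing depth was unknown. Differences are tip minus stalk on the log2(RPKM + 1) scale from limma, adjusted over all 12532 genes whose mean reached 1 RPKM, and a gene was called at an adjusted p under 0.05. Of the textbook markers, 8 of 8 for tip and 8 of 8 for stalk were called, each toward its own group. Wnt11 is among the tip markers, and its direction is not independent of the sort on Wnt11RFP. The lists were also chosen with earlier results of these data known, so these counts are not an independent check of the labels. Markers of endothelium differed as well, and 7 of 7 tested were called higher in stalk (summed level 41.8 to 69.8 RPKM in stalk and 5.43 to 8.81 RPKM in tip), and 0 of the 8 listed were at 0 in every library. Of 16 dissociation response genes, 9 were called toward stalk and 1 toward tip, beside 22.5% and 26.1% of all genes tested. Their sum ran from 5481 to 8487 RPKM in stalk and from 3946 to 5382 RPKM in tip. Of 3 immune markers tested, Laptm5 was called toward stalk (5.03 RPKM against 0.101 in tip) and Cd68 toward tip (9.46 RPKM against 5.50 in stalk), both picked out after their values were seen. The immune list summed to 13.7 to 15.4 RPKM in tip and 12.7 to 19.6 RPKM in stalk. None of 4 stromal and 2 erythroid markers tested was called by limma, and 0 of them had an unadjusted p under 0.05. Nephron progenitor markers summed to 4.44 to 7.58 RPKM in tip and 2.41 to 3.54 RPKM in stalk, with 2 of 2 tested called toward tip. Tip replicate 2 (-20.5) and stalk replicate 1 (-25.0) had low scores on the second principal component, on which 7.72 to 18.5 was the range of the remaining 4.

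Bcl2 and Bak1 transcripts were higher in tip, and Bcl2l1, Bcl2l2 and Pmaip1 transcripts were higher in stalk. These 5 were called among the 10 members, where 48.6% of all genes tested were called, so the share is near the background and is not a result about the family. Members went both ways, with 2 higher in tip (26.1% of all genes) and 3 higher in stalk (22.5% of all genes). Their median log2 difference was 0.01, beside 0.05 over all genes tested. The same 5 members had groups that did not overlap, as had 57.8% of all genes (31.3% toward tip, 26.5% toward stalk). In bulk libraries such as these, a lower level can come from fewer cells that express a gene or from less RNA per cell, and these cannot be told apart.

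**Figure D1:**
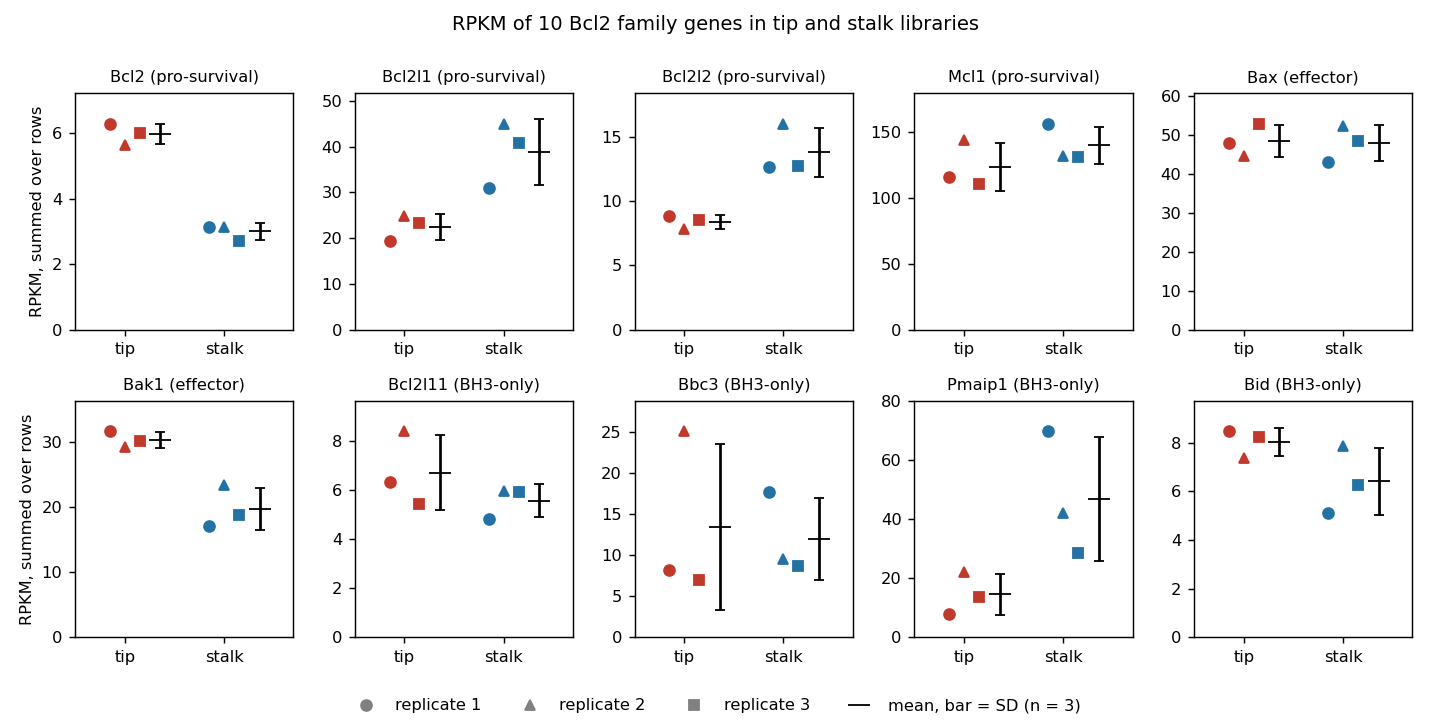
RPKM of the 10 Bcl2 family genes (y axis, from 0, a scale of its own for each gene) in the tip and stalk libraries, with a symbol for each replicate and the mean ± SD beside it (n = 3). Tip and stalk points are separate for Bcl2, Bcl2l1, Bcl2l2, Bak1 and Pmaip1 and overlap for the other 5 genes.

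For 4 of the 5 called members a promoter window was read from RefSeq (build GRCm38.p6), 250 bases before to 50 bases after the annotated start, and these are printed so that the genes that moved in opposite directions can be compared. Each is written 5′ to 3′ on the strand of the gene, with matches to GGGCGG (a GC box) or CCAAT on either strand in capitals. Bcl2 is at chr1:106714241-106714540 (minus strand) and Bak1 at chr17:27028578-27028877 (minus strand), at a start 382 bases from that of GENCODE. Bcl2l2 is at chr14:54883175-54883474 (plus strand), and Bcl2l1, for which the outermost of 3 windows is shown, at chr2:152831679-152831978 (minus strand).
Bcl2 (higher in tip): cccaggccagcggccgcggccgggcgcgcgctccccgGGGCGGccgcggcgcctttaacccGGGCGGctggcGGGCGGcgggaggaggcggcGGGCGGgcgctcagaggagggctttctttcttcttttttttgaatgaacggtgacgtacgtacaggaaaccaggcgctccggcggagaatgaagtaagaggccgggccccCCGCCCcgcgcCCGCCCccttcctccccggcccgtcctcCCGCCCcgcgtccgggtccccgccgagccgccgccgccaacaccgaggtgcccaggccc
Bak1 (higher in tip): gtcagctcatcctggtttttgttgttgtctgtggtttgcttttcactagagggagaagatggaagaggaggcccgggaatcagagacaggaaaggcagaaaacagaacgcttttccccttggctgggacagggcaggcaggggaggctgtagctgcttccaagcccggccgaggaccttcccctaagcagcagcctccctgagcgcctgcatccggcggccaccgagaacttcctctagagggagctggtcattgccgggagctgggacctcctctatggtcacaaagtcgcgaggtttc
Bcl2l1 (higher in stalk): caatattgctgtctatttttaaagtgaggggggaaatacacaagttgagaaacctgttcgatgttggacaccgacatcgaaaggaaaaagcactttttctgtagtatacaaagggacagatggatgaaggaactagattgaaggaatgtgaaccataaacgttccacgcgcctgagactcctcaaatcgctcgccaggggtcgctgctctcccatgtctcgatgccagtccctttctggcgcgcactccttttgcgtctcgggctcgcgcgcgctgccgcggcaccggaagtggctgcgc
Bcl2l2 (higher in stalk): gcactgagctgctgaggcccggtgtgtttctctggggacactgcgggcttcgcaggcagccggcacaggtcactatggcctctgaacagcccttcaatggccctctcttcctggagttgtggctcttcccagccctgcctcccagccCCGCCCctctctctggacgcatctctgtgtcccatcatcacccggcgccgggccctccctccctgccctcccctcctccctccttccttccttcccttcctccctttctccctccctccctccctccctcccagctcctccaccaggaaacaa

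These windows differ in composition also between genes with the same direction of change. That of Bcl2 is 76% G or C and holds 7 matches to GGGCGG, overlapping ones counted separately. That of Bak1, also higher in tip, holds 0 and is 58.3% G or C. Among the genes higher in stalk, the Bcl2l2 window holds 1 match and is 65.3% G or C. The Bcl2l1 window holds 0 and is 52.3% G or C. Over the 14 windows of 9 members, of which 2 of Bbc3 overlap, 10 hold GGGCGG, as do 35.7% of 32851 windows of the same length, and the median G or C content is 65.5% beside 52.7%. Bbc3, Bcl2l11 and Bcl2l1 have more than 1 window each, so windows are not independent units. The Bbc3 windows, all with GGGCGG, have starts 1190 to 2038 bases from that of GENCODE, and a Bcl2l1 window is 3239 bases away. The end of the Bbc3 and Mcl1 windows matched no GENCODE transcript of the gene. CCAAT was found in 3 of the 14 (37.4% of all), CACGTG, the E-box, in 2 (7.15% of all), and the p53 half-site by name in 1, that of Bax (8.36% of all). Neither TATAA nor TGANTCA, the AP-1 site, was found in any of the 14, and they occur in 24.9% and 7.81% of all windows. Both strands were searched for each. A match describes letters only, and no binding was measured.

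Among the pro-survival genes, Bcl2, the founding member of the family, went toward tip. It stood at 6.29, 5.65 and 5.99 RPKM in tip replicates 1 to 3 and at 3.15, 3.15 and 2.71 RPKM in stalk replicates 1 to 3. Every tip library lay above every stalk library, and the spread within each group was small. The tip mean of 5.98 ± 0.319 RPKM (SD, n = 3) was 1.99 times the stalk mean, and the log2 difference was 0.80 (SE 0.13, limma adjusted p = 0.00119). The gene (ENSMUSG00000057329.7) spans 106538178 to 106714274 on chromosome 1, minus strand, in GENCODE on the same build. By mean it was the lowest of the 10 members in both groups, although in tip replicate 3 Bcl2l11 was lower.

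Bcl2l1, whose long form Bcl-xL protects cells and whose short splice form does the opposite, went the other way. It was at 19.3, 24.8 and 23.4 RPKM in tip and at 30.9, 45.0 and 40.8 RPKM in stalk. The groups did not overlap, with stalk replicate 1 the lowest of the stalk libraries. Means were 22.5 ± 2.87 and 38.9 ± 7.24 RPKM (SD, n = 3), and the log2 difference was -0.75 (SE 0.16, limma adjusted p = 0.00461). The gene (ENSMUSG00000007659.18) spans 152780668 to 152831728 on chromosome 2, minus strand.

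Bcl2l2, which encodes Bcl-w, was also higher in stalk. Its libraries stood at 8.83, 7.81 and 8.55 RPKM in tip and at 12.7, 16.0 and 12.7 RPKM in stalk, again with no overlap. The log2 difference was -0.65 (SE 0.13, limma adjusted p = 0.00336). Bcl2l2 (ENSMUSG00000089682.10, chromosome 14, 54883377 to 54888234, plus strand) is marked in GENCODE as overlapping another gene, as are Bcl2, Bax and Bid. Whether the counting used strand was not given in the sources used here, so reads of an overlapping neighbour may be included in these 4.

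Mcl1, a short-lived pro-survival protein, was the most abundant member of the 10 in both groups. It stood at 116, 145 and 111 RPKM in tip and at 157, 132 and 132 RPKM in stalk. The ranges overlapped because tip replicate 2 lay above stalk replicates 2 and 3. Its log2 difference, -0.18, missed the threshold (limma adjusted p = 0.265, 95% interval -0.47 to 0.11). Mcl1 (ENSMUSG00000038612.16) lies at 95658788 to 95663176 on chromosome 3, plus strand.

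Set together, the 4 pro-survival genes summed to 149 to 183 RPKM in the tip libraries and 188 to 203 RPKM in the stalk libraries. Mcl1 made up most of this RNA everywhere, at 76.9 ± 2.29% in tip and 71.5 ± 4.99% in stalk (SD, n = 3), with overlapping ranges. Bcl2 was 3.77 ± 0.592% of the sum in tip and 1.53 ± 0.0833% in stalk (SD, n = 3), with no overlap. There were 3.07 to 4.39 Bcl2l1 transcripts per Bcl2 transcript, by RPKM, in tip and 9.81 to 15.1 in stalk. These sums and ratios over members are descriptions and were not tested.

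Of the effectors, Bak1 differed between the groups and Bax did not pass the test. Bak1, which sits in the mitochondrial outer membrane of healthy cells, was at 31.6, 29.1 and 30.2 RPKM in tip and at 17.0, 23.4 and 18.7 RPKM in stalk. The lowest tip library was above the highest stalk library. The log2 difference was 0.61 (SE 0.13, limma adjusted p = 0.00460) for this gene (ENSMUSG00000057789.14, chromosome 17, 27019810 to 27029009, minus strand). Bax, which is largely cytosolic until it is activated, stood at 47.8, 44.6 and 52.8 RPKM in tip and at 43.0, 52.4 and 48.5 RPKM in stalk, in fully overlapping ranges. Its difference of 0.02 had a 95% interval of -0.24 to 0.27 (limma adjusted p = 0.917), and its sign changed with the scaling of the libraries. Bax (ENSMUSG00000003873.11) lies at 45461697 to 45466898 on chromosome 7, minus strand. By RPKM there were 0.572 to 0.660 Bak1 per Bax in tip and 0.386 to 0.446 in stalk, and Bcl2l1 per Bak1 was 0.611 to 0.852 in tip and 1.82 to 2.18 in stalk.

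The deposited table gives some genes in several rows, with no name for the transcript behind each row. How reads shared by rows were divided is not given in the sources used here. Rows of the same gene may therefore not be separate measurements. Each row with a mean of at least 1 RPKM was also tested alone, in a fit chosen after seeing the data in which 29.8% of 20279 rows were called. The main Bak1 row was called higher in tip, with 24.7 ± 1.92 RPKM there against 13.1 ± 0.821 RPKM (SD, n = 3, log2 difference 0.86, limma adjusted p = 0.00120). The second Bak1 row, with 23.9% of the gene's RPKM, had means of 5.42 ± 0.669 (tip) and 6.55 ± 2.47 RPKM (stalk) and was not called (-0.19, limma adjusted p = 0.596). The difference between these rows was itself not tested. Both main rows of Bcl2l1 were called higher in stalk, by -0.84 (limma adjusted p = 0.00998) and -0.66 (limma adjusted p = 0.0201). The next Bcl2l1 row was not called (0.07, limma adjusted p = 0.895). Which of these rows are long or short forms cannot be read from the table. For Bcl2l2 the main row was called (-0.59, limma adjusted p = 0.00986) and the second was not (-0.55, limma adjusted p = 0.110).

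**Figure D2:**
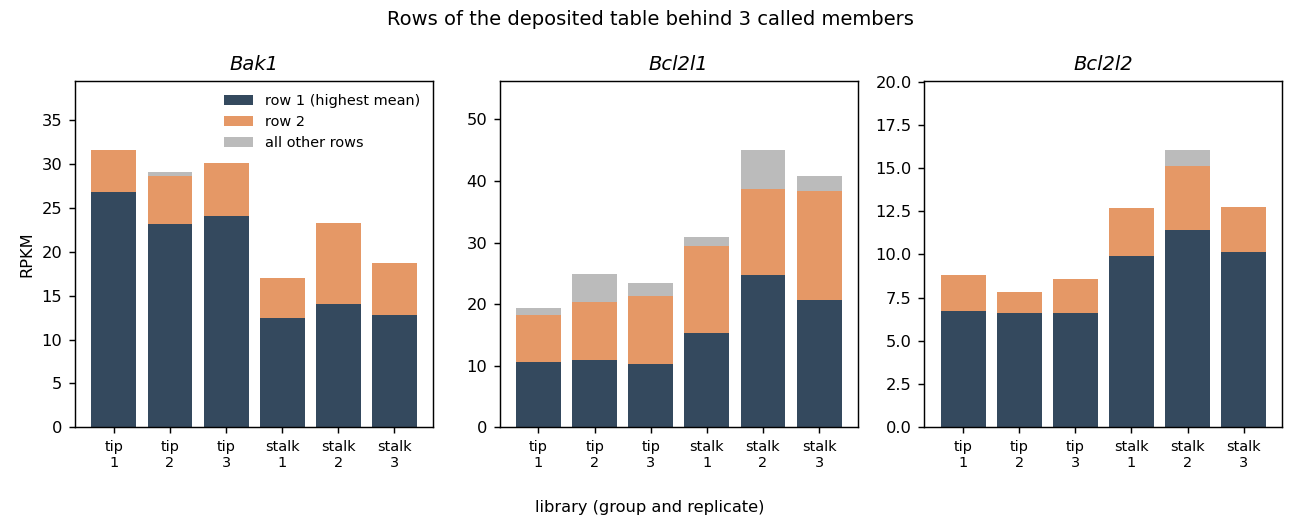
RPKM in each library (x axis) of Bak1, Bcl2l1 and Bcl2l2, stacked by row of the deposited table, with the row of the highest mean at the bottom. The main Bak1 row is taller in tip (mean 24.7 RPKM) than in stalk (13.1 RPKM), its second row overlaps between the groups, and both main Bcl2l1 rows are taller in stalk.

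Pmaip1, which encodes Noxa, an antagonist of Mcl1 that is induced by p53 and by cell stress, had the largest difference of the 10 members. It was at 7.94, 22.0 and 13.5 RPKM in tip and at 69.6, 42.0 and 28.4 RPKM in stalk. All stalk libraries were above all tip libraries, but both groups were widely spread, tip replicate 2 and stalk replicate 1 being the highest of their groups. Means were 14.5 ± 7.07 RPKM in tip and 46.7 ± 21.0 RPKM in stalk (SD, n = 3), a ratio of 3.22, with a log2 difference of -1.63 (SE 0.38, limma adjusted p = 0.00825, ENSMUSG00000024521.8). Of all genes tested, 6.84% had a larger absolute difference. A fit without tip replicate 2 and stalk replicate 1, added once the values had been seen, gave -1.64 (limma adjusted p = 0.00201). Over all alternatives the adjusted p for Pmaip1 ran from 0.00201 to 0.0472. Endothelial markers, dissociation response genes and Upk3a were also higher in stalk, as given above. Their part in this difference and in those of Bcl2l1 and Bcl2l2 was not tested. The part of the nephron progenitor markers in the differences of Bcl2 and Bak1 was not tested either.

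The other 3 BH3-only genes among the members did not pass the test. Bbc3, which encodes Puma, a p53 target that binds all the pro-survival proteins, stood at 8.13, 25.1 and 7.01 RPKM in tip and at 17.7, 9.49 and 8.66 RPKM in stalk. One library in each group was far above the other 2, and the tip mean of 13.4 ± 10.1 RPKM (SD, n = 3) had the widest relative spread of the members. The 95% interval of its log2 difference ran from -1.01 to 1.01 (limma adjusted p = 0.997), and the sign depended on the libraries kept. Bbc3 (ENSMUSG00000002083.13) lies at 16308393 to 16318205 on chromosome 7, plus strand.

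Bcl2l11, which encodes Bim, a BH3-only protein known to act against Bcl2 in the embryonic kidney, was at 6.31, 8.38 and 5.43 RPKM in tip and at 4.80, 5.97 and 5.92 RPKM in stalk. Tip replicates 1 and 2 were above every stalk library and tip replicate 3 was among them (log2 difference 0.22, 95% interval -0.17 to 0.61, limma adjusted p = 0.315). Without tip replicate 2 and stalk replicate 1 the difference was -0.019. Bid, which is cut by caspase-8 and so links death receptors to the mitochondrion, was at 8.47, 7.40 and 8.24 RPKM in tip and at 5.11, 7.88 and 6.26 RPKM in stalk. It missed the threshold (0.30, 95% interval -0.06 to 0.66, limma adjusted p = 0.15). Without stalk replicate 2, the highest of its group, it was called higher in tip (0.44, limma adjusted p = 0.0445, range over its alternatives 0.0445 to 0.490). Bcl2l11 (ENSMUSG00000027381.16) lies on chromosome 2, 128126038 to 128162547, plus strand, and Bid (ENSMUSG00000004446.12) on chromosome 6, 120891930 to 120916853, minus strand.

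Pmaip1 made up 25.7 to 39.6% of the RPKM summed over Bcl2l11, Bbc3, Pmaip1 and Bid in tip, and 57.7 to 71.6% in stalk. This sum leaves out the BH3-only genes Bmf and Bad, which were not among the members. Mean stalk levels were 29.1 RPKM for Bmf and 21.3 for Bad, and mean tip levels were 2.08 and 14.2. The share of Pmaip1 with these genes included was not computed, so its share of all BH3-only RNA is not given. The ratio of Mcl1 to Pmaip1 ran from 6.58 to 14.6 in tip and from 2.25 to 4.63 in stalk, without overlap and untested as a ratio of members. By mean level the order in tip was Mcl1, Bax, Bak1, Bcl2l1, Pmaip1, Bbc3, Bcl2l2, Bid, Bcl2l11 and Bcl2. Only the first 3 steps of it, from Mcl1 down to Bcl2l1, were larger than the ranges of the libraries. In stalk the order was Mcl1, Bax, Pmaip1, Bcl2l1, Bak1, Bcl2l2, Bbc3, Bid, Bcl2l11 and Bcl2. There, neighbours overlapped between Bax and Pmaip1, Pmaip1 and Bcl2l1, Bcl2l2 and Bbc3, and Bid and Bcl2l11.

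The 2 libraries with low scores on the second component had the highest values of some members and the lowest values of others. In 3 of the 10 members (Bbc3, Pmaip1 and Mcl1), tip replicate 2 was the highest tip library and stalk replicate 1 the highest stalk library, a pattern found in 13.5% of all genes tested. Bcl2l2, Bax, Bak1 and Bid went the opposite way, with both libraries the lowest of their groups, which was not counted over all genes. Bbc3 was 3.31 times the mean of the other tip libraries in tip replicate 2 and 1.95 times that of the other stalk libraries in stalk replicate 1. For Pmaip1 these ratios were 2.05 and 1.98, and for Mcl1 1.28 and 1.19. Among 10 regulators of BH3-only genes and of Mcl1 turnover, 6 showed the pattern, among them the stress genes Atf4 (1.57 and 1.39 times), Ddit3 (2.79 and 1.80 times) and Trib3 (11.9 and 9.98 times) and the forkhead gene Foxo3 (2.52 and 1.99 times). Of the p53 pathway genes, 3 of 15 showed it (Trp53, Sesn2 and Cdkn1a), beside 13.5% of all genes. For Sesn2 the ratios were 2.97 and 1.62, and for Cdkn1a 2.78 and 1.94. Foxo1 of the regulators and Mdm4, Phlda3, Sesn1, Aen and Gtse1 of the p53 list had their lowest value of each group in these libraries. Ddit3, Trib3, Foxo3, Foxo1, Sesn2, Mdm4, Phlda3, Sesn1 and Aen were named after their values were seen. The part of these genes in the members' values was not tested.

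**Figure D3:**
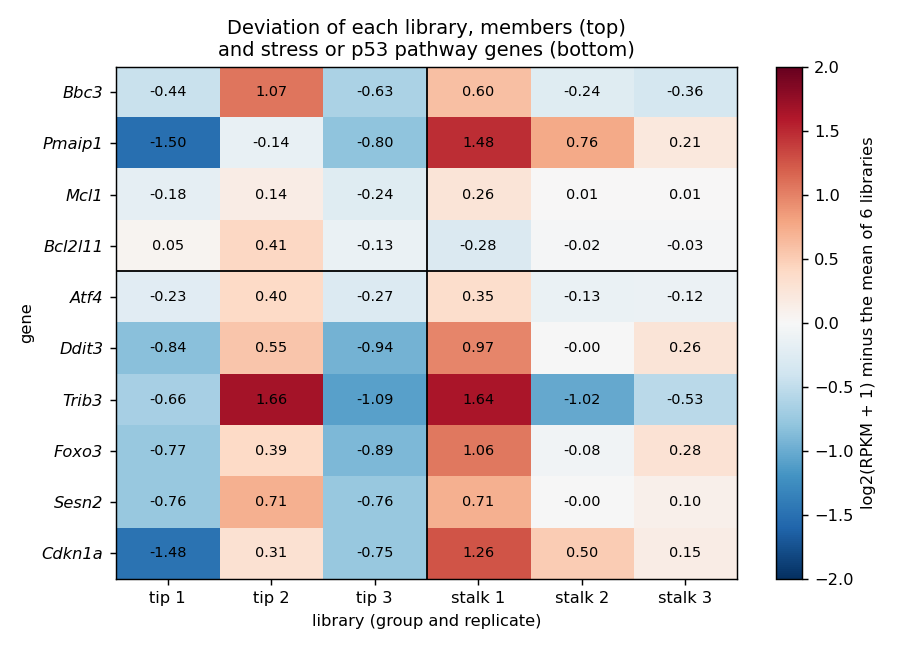
log2(RPKM + 1) of each library minus the mean of the 6 libraries (colour and printed value), for 4 members above the line and 6 stress or p53 pathway genes below it. In tip replicate 2 and stalk replicate 1, Bbc3 (1.07 and 0.60) and Trib3 (1.66 and 1.64) are above their means. Within each group these libraries are the highest for all genes shown except Bcl2l11 in stalk. The genes shown were picked with their values known, so this agreement follows from the choice and is not a result. Bcl2l2, Bax, Bak1 and Bid, which are lowest in these libraries within each group, are not shown.

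Genes whose pattern over the 6 libraries lay closest to these members were found by the root mean square distance of mean-centred log2(RPKM + 1) values. For Pmaip1 they were Ptgs2 (0.15), the cyclooxygenase gene, Adm (0.18), which encodes adrenomedullin, and Efna1 (0.20), an ephrin gene. For Bbc3 they were Bcar1 (0.17), Cstf3 (0.19) and Jdp2 (0.20). Each of the latter had its 2 highest libraries in tip replicate 2 and stalk replicate 1.

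Outside the 10 members, 13 of 15 other listed family genes had values, and 9 were tested. Of these, 2 were called toward tip and 3 toward stalk, with a median log2 difference of -0.14, so that 5 of 9 were called beside 48.6% of all genes, a share near the background. The BH3-only gene Bmf, whose protein is held on the actin cytoskeleton and is linked to loss of cell attachment, had a larger difference than any of the 10 members. It was at 1.81, 1.93 and 2.5 RPKM in tip and at 21.0, 36.7 and 29.6 RPKM in stalk, a ratio of 14.0, with a log2 difference of -3.26 (SE 0.20, limma adjusted p = 1.24e-05). Bok, a relative of Bax and Bak1, went toward tip, at 31.1, 27.2 and 23.1 RPKM against 5.31, 5.63 and 8.12 RPKM in stalk (1.95, SE 0.17, limma adjusted p = 5.56e-05). Neither gene's groups overlapped.

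Bcl2l14 was higher in stalk (12.4 ± 2.08 against 3.07 ± 0.948 RPKM, SD, n = 3, log2 difference -1.73, limma adjusted p = 0.000186). Bad, a BH3-only gene controlled by growth factor signalling, was called higher in stalk (-0.54, limma adjusted p = 0.0211) and Bcl2l12 higher in tip (0.46, limma adjusted p = 0.0320), but they missed the threshold in 6 and 7 of 14 alternatives. Over their alternatives the adjusted p ran from 0.00335 to 0.108 for Bad and from 0.0305 to 0.113 for Bcl2l12. Bad lost its call without tip replicate 1 (0.0612) or 2 (0.0589) and without stalk replicate 2 (0.0567) or 3 (0.0693). Bcl2l12 lost it without tip replicate 1 (0.0620), 2 (0.0517) or 3 (0.113) and without stalk replicate 1 (0.0686). Bnip3 (-0.73, limma adjusted p = 0.0844), Bnip3l (0.23), Bcl2l13 (0.14) and Bik (-0.14) did not pass the test. Bcl2a1d, Bcl2l10, Hrk and Bcl2l15 had means under 1 RPKM and were not tested, and Bcl2a1a and Bcl2a1b were not analysed here.

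**Figure D4:**
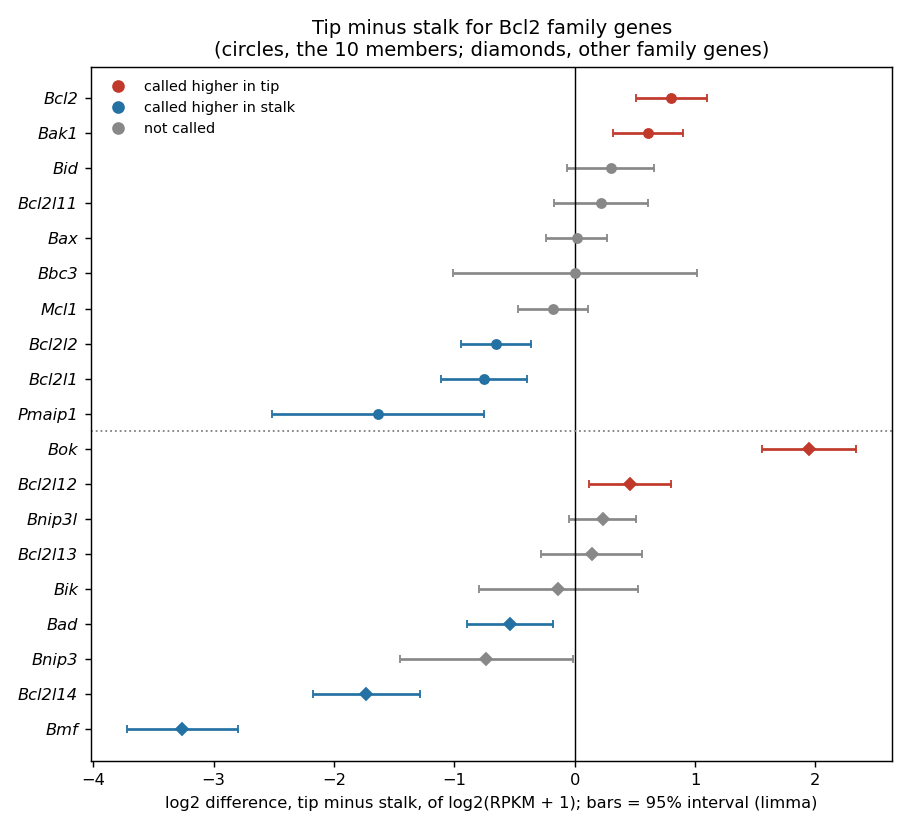
log2 differences, tip minus stalk, of log2(RPKM + 1) with 95% intervals from limma (x axis) for the 10 members (circles, above the dotted line) and 9 other family genes (diamonds). Bmf (-3.26) and Bok (1.95) lie beyond the range of the 10 members, which runs from -1.63 for Pmaip1 to 0.80 for Bcl2.

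Downstream of the family, the apoptosome and caspase genes, which carry out the death programme, had 3 of 13 called toward tip and 3 toward stalk (median log2 difference -0.16). Of all genes tested, 26.1% were called toward tip and 22.5% toward stalk, so these counts are near the background. Casp2 (0.73) and the mitochondrial protease gene Htra2 (0.55) were higher in tip, and the mitochondrial nuclease gene Endog (-0.95) was higher in stalk. Of 5 tested inhibitor of apoptosis genes, 1 was called, beside 48.6% of all genes. This was Birc5, higher in tip (1.57), at 45.8 ± 6.73 against 14.8 ± 2.58 RPKM. Its product, survivin, is also a subunit of the mitotic chromosome passenger complex. Birc6 (0.08, limma adjusted p = 0.533) was not called.

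Genes of the death receptor pathway, both receptors and intracellular parts, had 5 of 9 called toward stalk and 0 toward tip (median log2 difference -0.56), beside 22.5% and 26.1% of all genes. Tradd (-1.0), Tnfrsf21 (-0.99), Ripk1 (-0.93) and Tnfrsf1a (-0.88) had the largest differences. Cflar, which encodes an inhibitor of caspase-8, was also called toward stalk (-0.56, limma adjusted p = 0.0384). Casp8 (-0.03) and Fadd (0.21) were not called. Cflar, Casp8 and Fadd were named after their values were seen. Ripk1, the kinase downstream of the TNF receptor, had means of 9.56 ± 0.491 RPKM (stalk) and 4.55 ± 0.172 RPKM (tip; SD, n = 3). Of the mitochondrial outer membrane partners, 3 of 10 were called, beside 48.6% of all genes, and all 3 went toward stalk (22.5% of all genes): the fusion gene Mfn2 (-0.68), Mtch2 (-0.49), whose product binds Bid, and the channel gene Vdac1 (-0.45).

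The p53 pathway, which induces Bbc3, Pmaip1 and Bax in many settings, had 4 of 15 tested genes called toward tip and 5 toward stalk (median log2 difference -0.29), near the 26.1% and 22.5% of all genes. Perp (-2.03), Btg2 (-1.38) and Cdkn1a (-1.28) were higher in stalk and Gtse1 (1.63) in tip. Cdkn1a, the cell cycle inhibitor gene, was at 6.46, 24.8 and 11.4 RPKM in tip and 49.0, 28.5 and 22.1 RPKM in stalk, and its groups overlapped (limma adjusted p = 0.0404). Trp53 itself, named after its values were seen, was higher in tip, at 66.1 ± 12.5 against 27.8 ± 3.61 RPKM (1.21, limma adjusted p = 0.000333). None of the 10 regulators of BH3-only genes and of Mcl1 turnover was called by limma, the tool used throughout, beside 48.6% of all genes. An unadjusted p under 0.05 was found for 1 of them, beside 6919 of the 12532 genes tested. The most abundant were Atf4 (-0.07, limma adjusted p = 0.807) and the dynein light chain gene Dynll1 (0.32, limma adjusted p = 0.131), whose product binds Bim.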

How the data were processed

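Messenger RNA was sequenced from sorted tip and stalk cells, 3 libraries each. The values are RPKM computed by the authors and deposited in 1 table of 93615 rows. Per the submitters' processing notes, bcl2fastq 2.17, TopHat2, Partek and the build mm10 were used. For the annotation, the quantification settings and strand, the answer is not given in the sources used here. Rows with question marks (24545) were left out and RPKM was summed per symbol. Depth was unknown, so no counting intervals are given.

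Symbols reaching a mean of 1 RPKM (12532) were tested with limma 3.58.1 (R 4.3.3), two-sided, on log2(RPKM + 1), with group as the only term, a variance trend and Benjamini-Hochberg adjustment over all of them at 0.05. The pseudocount of 1 understates changes of low genes. On simulated data (200 of 12532 genes changed) the fit called 69% of changes of 1 log2 unit and 95% of those of 2, and 4.65% of calls were false. Gene positions came from GENCODE and promoters from RefSeq.

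The members and the gene lists were chosen with earlier results of these data known. Named were all members, the other family genes, from each list up to 4 called genes with the largest difference (the 2 most abundant where fewer than 2 were called), and the 3 genes most like Pmaip1 (largest called difference) and Bbc3 (widest spread). Exceptions are marked, and 1 gene that the rule names is not reported here. Alternatives were another pseudocount, other filters, median-ratio scaling, the highest row of a symbol, no variance trend, a replicate block and leaving out libraries.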

Additional observations from a re-analysis of the deposited data

How the results depend on the processing

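All 5 called members were called in the same direction under each alternative in which they were tested. With a minimum mean of 5 RPKM, Bcl2 was not tested and 1 member was called higher in tip in place of 2. With 1 library left out, 5 to 6 members were called, 2 to 3 of them higher in tip and 3 to 3 higher in stalk. Over all genes these fits called 4767 to 5853 genes, 2511 to 3077 higher in tip and 2256 to 2861 higher in stalk, and 23 to 28 genes of the pathway lists. In the fit without tip replicate 2 and stalk replicate 1, chosen after seeing the data, 6020 genes were called.

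Replicate numbers are shared between the groups, and the labels do not say whether they mark pairs. Deviations from the group means of same-numbered libraries correlated, across genes, at -0.30, -0.34 and 0.09, and tip replicate 2 correlated best with stalk replicate 1 (0.56). These correlations cannot tell whether same-numbered libraries shared animals or days. With a replicate block 5096 genes and 5 members were called.

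Differences near 0 that did not pass the test changed sign, and the cause was not tested. With 1 library left out Bax ran from -0.059 to 0.081, Bbc3 from -0.53 to 0.32, Bik from -0.46 to 0.15 and Bcl2l13 from -0.032 to 0.27. With median-ratio scaling Bax was at -0.038 and Bbc3 at -0.048, and with a pseudocount of 0.1 Bbc3 was at -0.0086. In the fit on 4 libraries Bax was at -0.0028, Bcl2l11 at -0.019 and Bbc3 at -0.24. Bnip3 passed the test without tip replicate 3 (-1.01, limma adjusted p = 0.0294) and without stalk replicate 3 (-0.98, limma adjusted p = 0.0437). Depth being unknown, values near 1 RPKM carry no stated counting error.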
